A study of Mus musculus with 20 samples.

Results

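The subunits of the nuclear RNA polymerases and of the RNA exosome were followed in mouse jejunal epithelium after joint loss of the histone demethylase genes Kdm6a and Kdm6b. The genes were taken by symbol: every name in both deposited tables that begins with Polr1, Polr2 or Polr3, or with Exosc and a digit. This gave 38 genes, 28 of them polymerase and 10 of them exosome subunits, among 15882 names shared by the tables. Poly(A) RNA was sequenced from 20 libraries of female mice. The groups were Kdm6a/Kdm6b double knockouts (DKO) 7 days after gene ablation (acute, n = 7) with their controls (labelled control or wild type, n = 5), and DKO 5 months after ablation (prolonged, n = 5) with their own controls (n = 3). The labels call the cells intestinal epithelial cells, and the series' design text calls them crypt epithelium. They do not name the recombinase driver, and they describe the libraries as biological replicates.

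Each nuclear RNA polymerase makes its own class of transcript. Polymerase I (Pol I) makes the large ribosomal RNA precursor, polymerase II (Pol II) makes messenger RNA, and polymerase III (Pol III) makes transfer RNA, the small ribosomal RNA and other short RNAs. Each has a pair of large subunits that form the catalytic centre, a set of smaller subunits of its own, and subunits that it shares with the others. The exosome is a barrel of ring subunits topped by cap subunits that bind RNA. The ring itself is catalytically inactive in mammals, and the nucleases Exosc10 and Dis3 trim and degrade RNA from the 3′ end, ribosomal RNA precursors among it. Both machines are needed in growing cells, such as those that divide in the intestinal crypt.

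Acute DKO epithelium had less transcript of a share of these subunits, exosome ring and cap genes among them. In acute DKO libraries 13 of the 38 genes fell and 0 rose (limma on log2 of CPM, the reads of a gene scaled to the reads of its library, plus a pseudocount of 1; Benjamini-Hochberg adjusted p under 0.05 over all 13601 genes tested). That is 34.2% of the members, against 12.1% of all genes tested that fell and 2.9% that rose. The median log2 fold change was -0.21 over the members and -0.07 over all genes. The fall was called for 6 of 10 exosome and 7 of 28 polymerase subunits. At 5 months, 1 of 38 genes was lower (2.63%, against 8.94% of all genes) and 0 were higher (against 5.74% of all genes). All 38 members passed the filter on low values at both times.

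Library depth was 19134272 to 26586045 reads in genes for acute DKO, 15435118 to 26549494 for acute controls, 12560843 to 20612206 for prolonged DKO and 9914738 to 23181576 for prolonged controls. Kdm6a ranged over 38.5 to 45.7 CPM in acute DKO and 57.7 to 72.6 CPM in acute controls, and over 44.4 to 55.3 CPM in prolonged DKO and 70.8 to 82.6 CPM in prolonged controls. Kdm6b ranged over 59.8 to 81.1 CPM in acute DKO and 91.2 to 109 CPM in acute controls, and over 71.4 to 82.9 CPM in prolonged DKO and 99.5 to 107 CPM in prolonged controls. Transcript of both targeted genes was thus lower in every DKO library, but not absent; the deleted exons are not given in the labels. Summed epithelial markers reached 8520 CPM or more in every library. Acute DKO 3 and acute DKO 4 stood apart from the other acute libraries, with 34.0 and 45.9 on the first principal component, against -28.0 to 12.1 in the other 10 libraries. Acute counts of called members, and the ratio of Polr3g to Polr3gl, are therefore also given without both. Results for other gene lists are given with all libraries only.

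The promoters of 5 members that the results below turn on are shown first: Exosc8 was lower at both times, Polr2e and Polr2b fell in each acute leave-out, and Polr3g and Polr3gl are alternative forms of a single Pol III subunit. Each window runs from 250 bases before to 50 bases after the RefSeq start, 5′ to 3′ on the gene's strand (RefSeq, GRCm38.p6). Capitals mark matches, on either strand, to a GC box (GGGCGGG), an E-box (CACGTG), an NRF1-type motif (GCGCATG) or an ETS-type motif (CCGGAAG).
Exosc8 (chr3:54735315-54735614, minus strand): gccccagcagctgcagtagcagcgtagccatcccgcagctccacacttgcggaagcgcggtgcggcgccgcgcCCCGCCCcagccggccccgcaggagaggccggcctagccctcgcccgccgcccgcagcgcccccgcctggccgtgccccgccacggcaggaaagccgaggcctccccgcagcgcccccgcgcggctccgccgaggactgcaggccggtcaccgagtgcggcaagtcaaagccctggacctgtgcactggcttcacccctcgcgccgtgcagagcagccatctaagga
Polr2e (chr10:80039610-80039909, minus strand): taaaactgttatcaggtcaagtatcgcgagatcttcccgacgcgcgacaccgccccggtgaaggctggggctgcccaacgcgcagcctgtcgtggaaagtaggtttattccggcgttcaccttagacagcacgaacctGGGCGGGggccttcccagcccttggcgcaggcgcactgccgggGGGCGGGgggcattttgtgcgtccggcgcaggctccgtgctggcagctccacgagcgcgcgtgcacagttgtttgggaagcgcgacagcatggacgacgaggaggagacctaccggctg
Polr2b (chr5:77310234-77310533, plus strand): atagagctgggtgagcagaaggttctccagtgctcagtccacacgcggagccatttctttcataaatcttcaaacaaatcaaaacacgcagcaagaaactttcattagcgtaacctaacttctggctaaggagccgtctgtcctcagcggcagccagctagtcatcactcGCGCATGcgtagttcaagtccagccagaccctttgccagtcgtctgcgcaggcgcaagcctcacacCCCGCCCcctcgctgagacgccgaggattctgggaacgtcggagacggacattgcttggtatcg
Polr3g (chr13:81710964-81711263, minus strand): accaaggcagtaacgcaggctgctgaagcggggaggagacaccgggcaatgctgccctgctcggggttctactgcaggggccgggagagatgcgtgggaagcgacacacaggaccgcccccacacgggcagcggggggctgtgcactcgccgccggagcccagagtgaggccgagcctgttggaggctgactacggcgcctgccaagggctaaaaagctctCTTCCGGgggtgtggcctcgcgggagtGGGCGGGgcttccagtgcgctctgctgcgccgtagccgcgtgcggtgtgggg
Polr3gl (chr3:96594132-96594431, minus strand): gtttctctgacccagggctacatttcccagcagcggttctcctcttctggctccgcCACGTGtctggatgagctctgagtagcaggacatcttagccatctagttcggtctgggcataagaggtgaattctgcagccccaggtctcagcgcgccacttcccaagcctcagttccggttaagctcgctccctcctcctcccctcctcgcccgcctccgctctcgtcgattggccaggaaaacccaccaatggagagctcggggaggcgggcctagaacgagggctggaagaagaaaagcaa
The 5 windows differ in what they hold. Those of Exosc8, Polr2e, Polr2b and Polr3g each contain a GC box, that of Polr2e 2 of them, and that of Polr3gl has only an E-box among these motifs. The Polr2b window also holds an NRF1-type match and the Polr3g window an ETS-type match. Polr3c, also called lower in each acute leave-out, is not among the 5 shown, and its window holds an E-box and 2 GC boxes. A promoter was found for 30 of the 38 members, with 33 windows between them. A GC box was present in 16 of these windows (48.5%, against 25.6% of all 32851 RefSeq windows of that length), and an ETS-type motif in 9 (27.3%, against 8.86%). The E-box was present in 5 windows (15.2%, against 7.15%), and the NRF1-type motif also in 5 (15.2%, against 3.91%). The comparison windows were not limited to genes expressed in these libraries, so these shares do not show a trait particular to the members. Matches of different motifs may overlap, and a match is a stretch of letters, not a measured binding site.

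Among the exosome ring subunits, Exosc8 had the largest acute change. It was present at 12.9 to 20.1 CPM in the 7 acute DKO libraries (median 16.6), against 24.4, 19.1, 21.8, 21.6 and 20.4 CPM in the acute controls. All acute DKO libraries but DKO 6 were below every control. The log2 fold change was -0.41 ± 0.10 (SE; limma, adjusted p = 0.0168), and the call was lost without acute control 1 (adjusted p = 0.0521). Prolonged DKO libraries had 17.5, 16.1, 16.9, 14.7 and 15.8 CPM of Exosc8, against 21.5, 19.1 and 19.4 CPM in prolonged controls. The prolonged groups did not overlap, and the log2 fold change was -0.29 ± 0.08 (SE; limma, adjusted p = 0.0415). Exosc8 was the single member called at both times. The prolonged call was lost without any one of 6 of the 8 libraries (DKO 2, 4 and 5 and each control), with adjusted p up to 0.127.

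The cap subunit Exosc2, which helps feed RNA into the barrel, had 18.8 to 26.9 CPM in acute DKO libraries (median 20.6), against 33.9, 26.6, 30.0, 27.6 and 27.1 CPM in acute controls. Only acute DKO 7 lay within the control range. Its acute log2 fold change was -0.38 ± 0.10 (SE; limma, adjusted p = 0.0182), and the call was lost without acute control 1 or 3 (adjusted p up to 0.0559). In prolonged DKO libraries Exosc2 had 22.0, 20.5, 19.7, 17.9 and 19.9 CPM, against 24.1, 22.2 and 24.8 CPM in prolonged controls. Those groups did not overlap either, but the log2 difference of -0.24 ± 0.08 missed the threshold (limma, adjusted p = 0.0800).

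The other exosome subunits shared the direction at 7 days. The ring subunits Exosc5, Exosc7 and Exosc9 and the cap subunit Exosc3 fell, with log2 fold changes between -0.31 and -0.26; with TMM factors Exosc5 alone of these 4 kept its call, and Exosc5 and Exosc3 each held in 6 of 12 leave-outs, Exosc7 in 8 and Exosc9 in 10, all 4 being lost without control 3 or 4. Exosc9 was lower in all 7 acute DKO libraries than in any acute control. Such a gap was found for 4 of the 38 members at 7 days (Exosc9, Polr2b, Polr2e and Polr3c), against 6.55% of all genes, and for 3 at 5 months (Exosc2, Exosc6 and Exosc8), against 11.7% of all genes. The cap subunit Exosc1, the ring subunits Exosc4 and Exosc6 and the nuclear exonuclease Exosc10 had values of -0.23, -0.16, -0.22 and -0.21 that did not pass the test. At 5 months Exosc4 (0.14) and Exosc5 (0.04) lay above 0 and the other 8 exosome subunits below it, Exosc8 alone with a call.

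**Figure D1:**
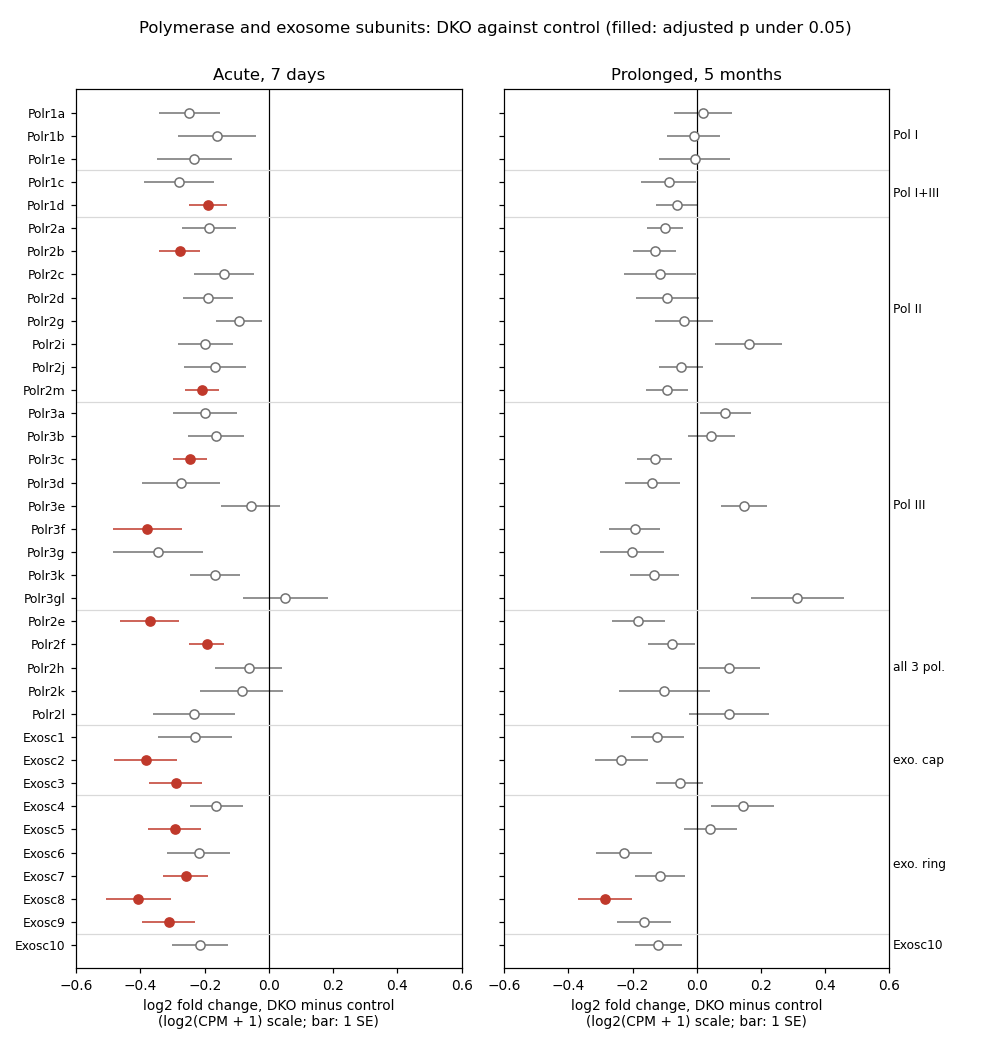
Log2 fold change of DKO minus control (log2(CPM + 1) scale) with 1 SE for 37 of the 38 subunits, acute on the left and prolonged on the right, grouped by complex; filled red points passed the test. Of the acute points 36 lie left of 0 (64.6% of all genes tested did) and 13 are filled. Of the prolonged points 27 lie left of 0 (49.6% of all genes tested did) and 1, Exosc8, is filled.

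Of the 5 subunits present in all 3 polymerases, 2 fell at 7 days, Polr2e the more. It had 44.0 to 63.0 CPM in acute DKO libraries (median 57.2), against 64.6, 72.9, 72.5, 69.0 and 64.2 CPM in acute controls. Every acute DKO library was below every control, and the log2 fold change was -0.37 ± 0.09 (SE; limma, adjusted p = 0.0154). In prolonged DKO libraries Polr2e had 46.5, 41.7, 53.9, 42.6 and 46.0 CPM, against 55.7, 52.1 and 49.2 CPM in prolonged controls. Prolonged DKO 3 lay among the controls there, and the log2 difference of -0.18 ± 0.08 did not pass (limma, adjusted p = 0.172). Polr2f, also common to all 3, fell at 7 days by 0.19 on the log2 scale, but its value was -0.11 with TMM factors, without a call (limma, adjusted p = 0.152), and the call was lost without acute DKO 1 or 3 or without control 1, 3 or 4. Polr2h, Polr2k and Polr2l did not pass. Polr2k was the least abundant member by CPM, with means of 1.33 CPM in acute DKO and 1.47 CPM in acute controls.

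Of the 8 subunits and partners of Pol II, 2 fell at 7 days. Polr2b, the second largest subunit, which forms the catalytic centre with Polr2a, had 64.6 to 78.7 CPM in acute DKO libraries (median 68.4), against 93.9, 80.9, 88.7, 86.0 and 80.8 CPM in acute controls. The groups did not overlap, and the log2 fold change was -0.28 ± 0.06 (SE; limma, adjusted p = 0.00994). At 5 months Polr2b had 73.3, 76.2, 77.8, 73.9 and 76.4 CPM in DKO libraries, against 92.7, 74.0 and 82.7 CPM in prolonged controls, and the groups overlapped (limma, adjusted p = 0.228). Polr2m, which binds Pol II and restrains its start of transcription, fell by 0.21 at 7 days on the log2 scale; the value was -0.12 with TMM factors, without a call (limma, adjusted p = 0.113), and the call was lost without acute control 3. Polr2a, the largest subunit, whose tail is phosphorylated during the transcription cycle, had 122 to 171 CPM in acute DKO libraries (median 148), against 165, 182, 171, 170 and 150 CPM in acute controls. Its log2 difference of -0.19 ± 0.08 did not pass (limma, adjusted p = 0.155). At 5 months it had 222, 244, 241, 215 and 231 CPM in DKO libraries, against 259, 245 and 237 CPM in prolonged controls (log2 difference -0.10 ± 0.06; limma, adjusted p = 0.271).

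Pol III had 2 called members of 10 at 7 days, Polr3f and Polr3c, which belong to the part of the enzyme that helps open the promoter. Polr3f had 14.9 to 21.6 CPM in acute DKO libraries (median 18.1), against 23.9, 24.0, 29.2, 21.8 and 19.9 CPM in acute controls. Acute DKO 6 alone lay above the lowest control. Its log2 fold change was -0.38 ± 0.11 (SE; limma, adjusted p = 0.0304), a call that was lost without acute DKO 1 or 3 or without control 1, 2 or 3. Polr3f at 5 months had 22.8, 23.9, 21.3, 19.8 and 21.4 CPM in DKO libraries, against 26.0, 23.8 and 25.4 CPM in prolonged controls (log2 difference -0.19 ± 0.08; limma, adjusted p = 0.128). Polr3c fell at 7 days by 0.25 on the log2 scale, with no overlap of the groups; with TMM factors it was at -0.16, without a call (limma, adjusted p = 0.0926). The largest subunit Polr3a had 19.1 to 26.8 CPM in acute DKO libraries (median 20.9), against 26.1, 25.1, 30.4, 26.1 and 22.0 CPM in acute controls, and the groups overlapped (limma, adjusted p = 0.211). In prolonged DKO libraries Polr3a had 30.1, 31.9, 30.9, 28.5 and 27.5 CPM, against 31.2, 26.0 and 26.7 CPM in prolonged controls (log2 difference 0.09 ± 0.08; limma, adjusted p = 0.516).

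Pol I had 0 called members of 3 at 7 days (limma), and 1 of them, Polr1a, had an unadjusted p under 0.05. Polr1a, its largest subunit, had 29.7 to 45.6 CPM in acute DKO libraries (median 35.8), against 50.8, 40.9, 42.2, 42.5 and 40.0 CPM in acute controls. The log2 difference of -0.25 ± 0.09 missed the threshold (limma, adjusted p = 0.0985), with acute DKO 7 alone within the control range. Polr1a at 5 months had 52.5, 54.9, 54.9, 52.5 and 55.9 CPM in DKO libraries, between the lowest and the highest of the prolonged controls at 63.5, 44.9 and 53.4 CPM. Polr1d, shared by Pol I and Pol III, had 51.3 to 61.5 CPM in acute DKO libraries (median 53.2), against 64.7, 59.6, 65.8, 65.0 and 60.7 CPM in acute controls. Its fall of 0.19 ± 0.06 (SE, log2) was the call nearest the threshold (limma, adjusted p = 0.0455), and it held in 3 of 12 fits that each left out a library. With TMM factors it was at -0.10, without a call (limma, adjusted p = 0.173). Polr1d at 5 months had 53.2, 48.0, 57.2, 53.8 and 50.2 CPM in DKO libraries, against 56.7, 52.3 and 55.3 CPM in prolonged controls, and the groups overlapped. Its partner Polr1c had an acute difference of -0.28 that did not pass.

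**Figure D2:**
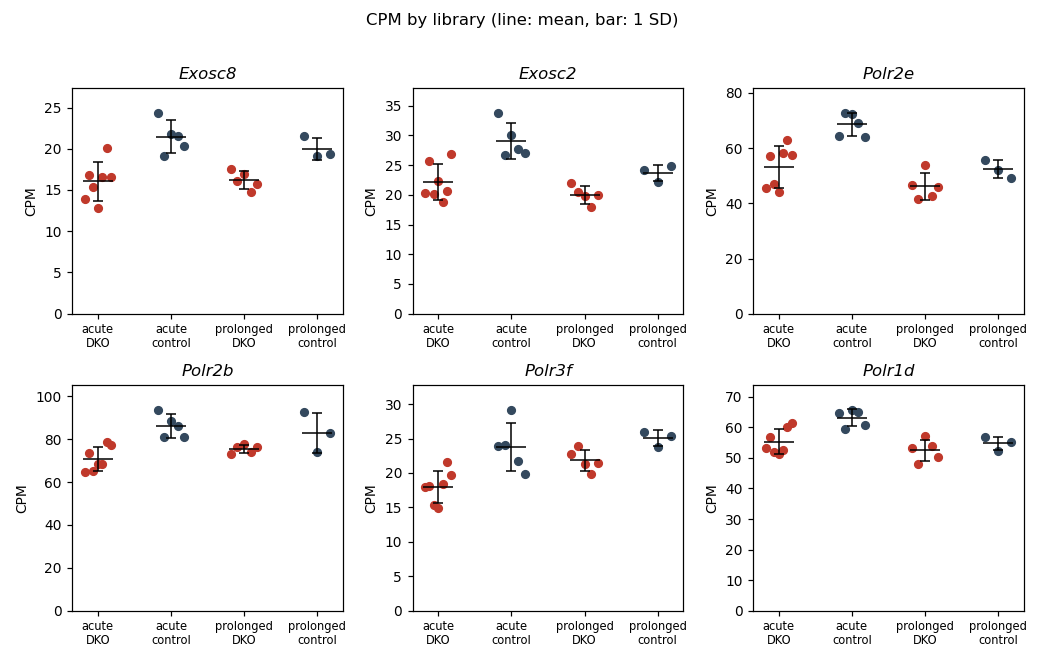
CPM (vertical axes, from 0) of Exosc8, Exosc2, Polr2e, Polr2b, Polr3f and Polr1d in each library, DKO in red and control in blue, with the mean and 1 SD. At 7 days the DKO libraries of Polr2e (44.0 to 63.0) and Polr2b (64.6 to 78.7) lie below every control, and at 5 months those of Exosc8 and Exosc2 do.

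Polr3g and Polr3gl are alternative forms of a single Pol III subunit; in mammals Polr3g is known from stem and tumour cells and Polr3gl from most differentiated tissues. Polr3g had 6.57 to 12.1 CPM in acute DKO libraries (median 9.93), against 11.6, 10.9, 14.1, 11.4 and 11.5 CPM in acute controls (log2 difference -0.35 ± 0.14; limma, adjusted p = 0.121). Polr3gl had 9.51 to 16.9 CPM in acute DKO libraries (median 14.9), against 11.9, 15.3, 13.2, 13.8 and 11.7 CPM in acute controls. Its difference of 0.05 ± 0.13 (limma, adjusted p = 0.844, unadjusted p = 0.705) made it the single member above 0 at 7 days. Prolonged DKO libraries had Polr3g at 9.87, 9.83, 8.59, 8.78 and 11.0 CPM, against 11.4, 10.9 and 11.2 CPM in prolonged controls. Polr3gl had 11.4, 13.5, 14.1, 14.0 and 17.7 CPM in the same DKO libraries, against 14.0, 9.52 and 10.2 CPM in prolonged controls. Neither passed the test at 5 months (limma, adjusted p = 0.218 and 0.182).

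The balance between the forms did differ at 7 days. The log2 ratio of Polr3g over Polr3gl averaged -0.54 ± 0.12 in acute DKO and -0.14 ± 0.22 in acute controls (SD, n = 7 and 5), a difference of -0.40 (two-sided exact permutation test over 792 splits, p = 0.00379; 0.00758 adjusted over the 2 times). The ratio was below every control in 5 of 7 acute DKO libraries. In prolonged libraries it averaged -0.50 ± 0.20 in DKO and 0.01 ± 0.25 in controls (SD, n = 5 and 3). That difference of -0.51 did not pass (two-sided exact permutation test over 56 splits, p = 0.0536, where the smallest possible is 0.0179), although 4 of 5 DKO libraries were below every control. The acute difference kept an exact p of 0.00909 or less when any single library was left out, and was -0.38 without DKO 3 and 4 (exact p = 0.0238). The ratio compares genes measured in the same library, so a library's scaling hardly moves it.

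**Figure D3:**
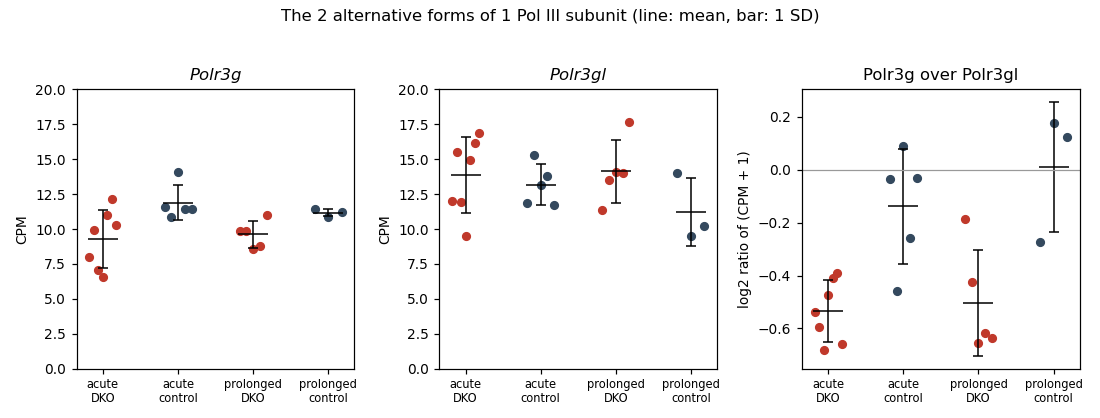
CPM of Polr3g (left) and Polr3gl (middle) and the log2 ratio of their CPM + 1 (right) in each library, DKO in red and control in blue, with the mean and 1 SD. The ratio averages -0.54 in acute DKO and -0.14 in acute controls, and -0.50 in prolonged DKO and 0.01 in prolonged controls.

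Levels can be set beside each other between genes only per length, here as mean acute CPM per kilobase of annotated exons (GENCODE vM21, GRCm38, not the build of the files). On that scale Polr2m was the most abundant member, with 46.6 in DKO and 53.9 in controls, followed by Polr2j with 25.3 in DKO and 28.6 in controls. Polr2l was the lowest, with 1.72 in DKO and 2.10 in controls. Polr3gl, at 8.68 in DKO and 8.25 in controls, stood above Polr3g, at 2.36 in DKO and 3.02 in controls. The called genes spread over most of this range, among them Exosc8 at 3.70 in DKO and 4.95 in controls and Polr2e at 19.9 in DKO and 25.7 in controls.

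**Figure D4:**
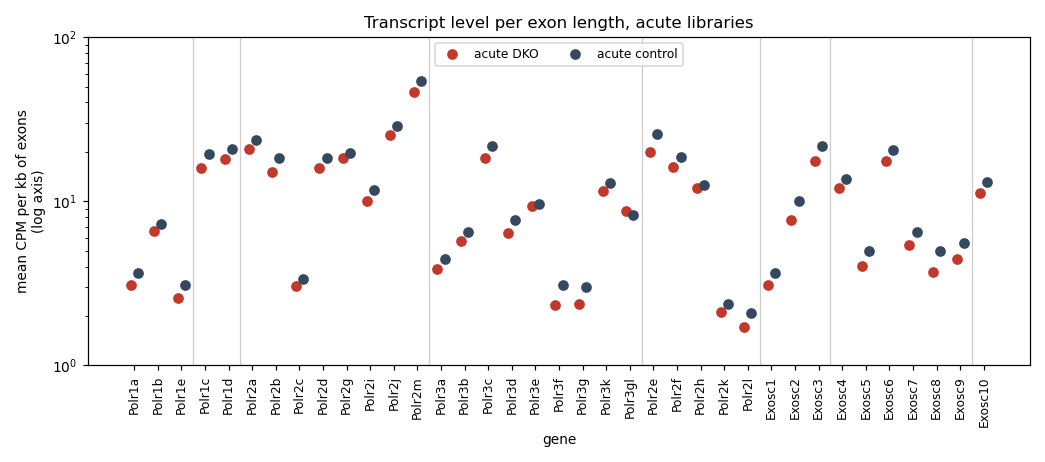
Mean CPM per kilobase of annotated exons (log axis) for 37 of the 38 subunits in acute DKO (red) and acute control (blue) libraries, grouped by complex. Polr2m is highest (46.6 in DKO, 53.9 in controls), Polr2l is lowest (1.72 in DKO, 2.10 in controls), and Polr3gl alone has the DKO point above the control point.

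The median deviation of the 38 members from the acute control mean (log2) was -0.35 in DKO 1, -0.17 in DKO 2, -0.29 in DKO 3, -0.31 in DKO 4, -0.23 in DKO 5, -0.13 in DKO 6 and -0.05 in DKO 7. All 7 were below 0, with DKO 7 nearest to the controls. With TMM factors the medians were -0.19, -0.15, -0.16, -0.10, -0.18, -0.12 and -0.03 in DKO 1 to 7, so that DKO 4 moved from among the lowest to next to DKO 7; the order of the libraries, other than DKO 1 at the low and DKO 7 at the high end, depends on the scaling. On CPM without TMM factors, acute DKO 4 held the lowest value of 18 of the 38 members, DKO 1 and DKO 5 of 8 each, and the controls of 0. These counts may depend on the scaling too, since the TMM factor of DKO 4 was the lowest of the acute libraries (0.892). In the prolonged libraries the medians ran from -0.13 to -0.03 in DKO and from -0.09 to 0.07 in controls, so they overlapped.

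**Figure D5:**
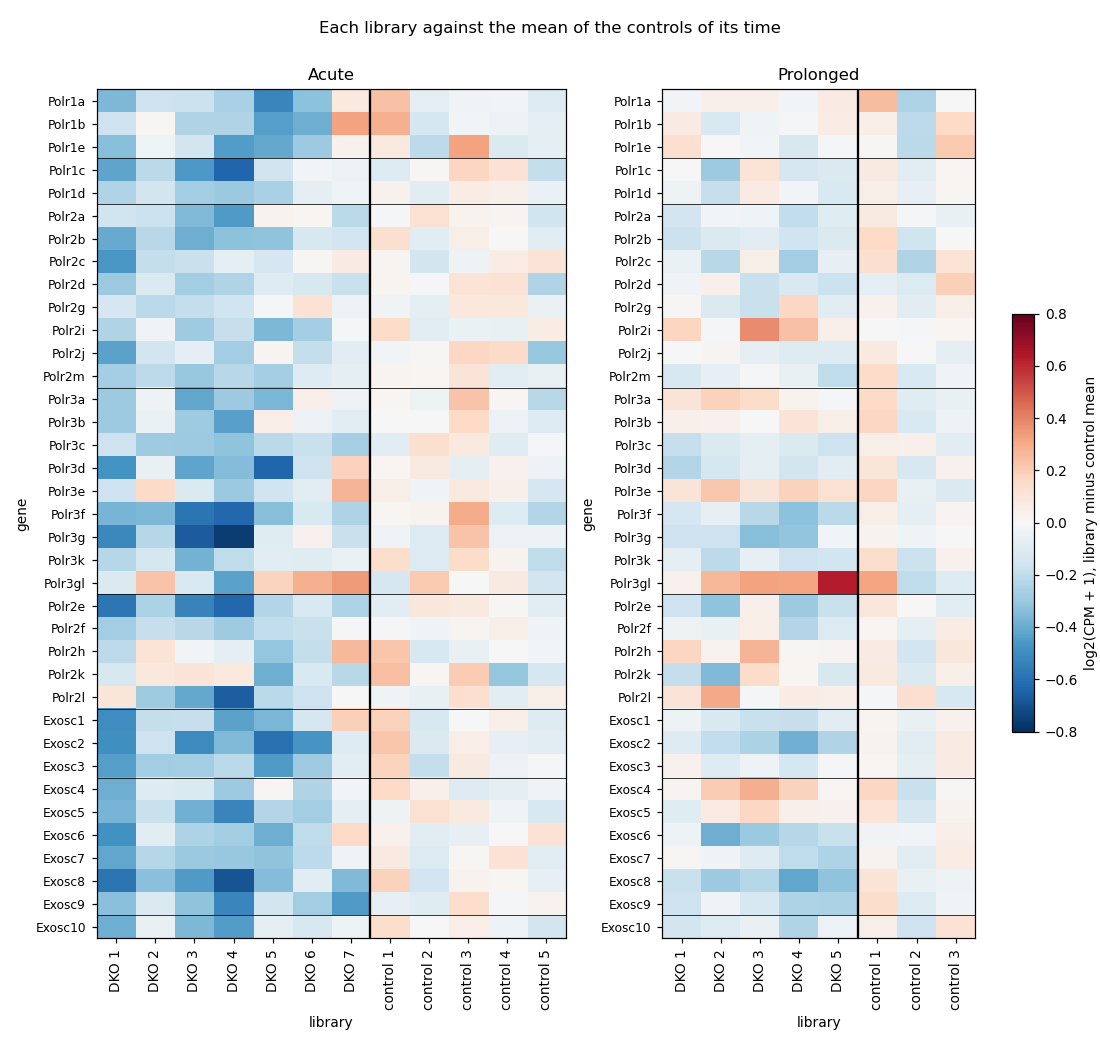
Log2(CPM + 1) of 37 of the 38 subunits (rows) in each library (columns) minus the mean of the controls of its time, with DKO libraries left of the black line; blue is below and red above the control mean. Acute DKO libraries are mostly blue, with medians over all 38 members of -0.35 (DKO 1) to -0.05 (DKO 7), and prolonged DKO libraries are paler, with medians of -0.13 to -0.03.

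Part of the acute shift moved with the scaling of the libraries. With CPM scaled by TMM factors, a normalization that sets the bulk of genes level, 6 of 38 members fell (15.8%, against 8.26% of all genes). Their median was -0.12, against 0.01 for all genes. By complex, 3 of 28 polymerase members fell (10.7%), a share near that of all genes, and 3 of 10 exosome members (30.0%). The same 6, namely Exosc2, Exosc5, Exosc8, Polr2b, Polr2e and Polr3f, were called on reads recovered from the CPM by edgeR's quasi-likelihood test (against 7.95% of all genes) and by DESeq2 (against 9.14%). They are also the 6 called lower in the authors' deposited comparison. Its fold changes and adjusted p-values for these 6 equal those of the DESeq2 fit, so this match is not a separate result. At 5 months the call of Exosc8 held, again alone among the members, with TMM factors (8.7% of all genes fell), edgeR (8.75%) and DESeq2 (9.14%). The split over all genes was 394 higher and 1641 lower on CPM, and 660 higher and 1124 lower with TMM factors. Polr2h and Polr3e, just below 0 on CPM, were just above it in all 3 of these fits, and Polr2g was so by DESeq2. Without acute DKO 3 and 4, 6 of 38 members fell (Exosc2, Exosc3, Exosc8, Polr2b, Polr2e and Polr3c; 9.64% of all genes), and Exosc2, Exosc8, Polr2b and Polr2e were called in all of these fits. The acute count was 4 without control 3, 5 without control 1, 7 without DKO 1 or without control 4, and 8 without DKO 3, while Polr2b, Polr2e and Polr3c were called in 12 of 12 such fits.

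The genotype effect was set against itself across the times in a joint fit of the 4 groups, since a call at 7 days without one at 5 months does not show a difference. In this fit 0 of 13088 genes passed (limma), and 608 genes, 4 of them members, had an unadjusted p under 0.05; edgeR called 0 genes and DESeq2 called 6 higher (0.0458%) and 2 lower (0.0153%), with 0 members among them. The members' effect at 5 months minus that at 7 days had a median of 0.15 on the log2 scale, against 0.08 for all genes; with TMM factors the medians were 0.07 and 0.0016, with 5 in place of 2 members below 0. For Exosc8 this difference was 0.12 ± 0.14, for Exosc2 0.15 ± 0.14, for Polr2e 0.19 ± 0.14 and for Polr2b 0.15 ± 0.10 (SE). Of the 38 members 27 were below 0 at both times, 10 were below 0 at 7 days and above it at 5 months, and 1, Polr3gl, was above 0 at both. Over all genes tested on CPM, 64.6% were below 0 at 7 days and 49.6% at 5 months. With TMM factors 35 members were below 0 at 7 days and 25 at 5 months, against 47.4% of all genes at each time.

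Among genes that work with these machines, the shares that fell at 7 days lay above and below the 12.1% of all genes, by list, and the times were not tested against each other for these lists. Among exosome partners and cofactors, 3 of 17 fell at 7 days and 0 rose. Dis3, the catalytic subunit of the exosome, had the largest fall, with 23.2 ± 2.9 CPM in acute DKO and 32.3 ± 6.1 CPM in acute controls (SD; log2 fold change -0.45, limma, adjusted p = 0.0185). Dis3 was also lower at 5 months, with 24.0 ± 2.1 CPM in prolonged DKO and 31.9 ± 2.8 CPM in prolonged controls (SD; log2 fold change -0.39, limma, adjusted p = 0.0112), the single call of that list there. Among factors that assemble the polymerases, 4 of 14 fell at 7 days, Rpap3 the most (-0.37), and 0 of 14 passed at 5 months. Of ribosome biogenesis genes, 10 of 48 fell at 7 days, Gar1 the most (-0.49), and 1 of 48, Utp20 (-0.26), fell at 5 months. The Pol I, Pol II and Pol III transcription factors gave 1 of 9, 2 of 24 and 1 of 17 lower calls at 7 days, led by Tcof1 (-0.37), Gtf2h5 (-0.29) and Gtf3c5 (-0.23), each share below that of all genes, and 0 at 5 months. The 3 Pol I subunits that the tables hold under older symbols (Znrd1, Twistnb and Cd3eap), and Crcp of Pol III, had 0 calls at either time. In these pathway lists, 133 genes in all, 0 rose at either time (limma), against 2.9% of all genes at 7 days and 5.74% at 5 months. At an unadjusted p under 0.05 (limma) there were 0 higher and 47 lower at 7 days and 7 higher and 15 lower at 5 months. Over all genes, 3924 of 13601 were under that threshold in either direction at 7 days, and 3758 of 13316 at 5 months. On CPM 21 of the 133 were called lower at 7 days, against 12.1% of all genes. With TMM factors this became 13 of 133, a share near the 8.26% of all genes. At 5 months 2 of 133 were called lower on CPM, against 8.94% of all genes. With TMM factors 1 Pol II factor was higher at 5 months. In the Myc family and its partners, transcription factors of growth genes, 3 of 11 fell at 7 days, and at 5 months 2 fell and 1, Max (0.29), rose. Mycn fell the most at both times (-1.21 and -1.31).

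Markers of dividing and Paneth cells, and the summed level of stem cell markers, moved with genotype beside these results. Of 20 proliferation markers, 20 fell at 7 days and 18 at 5 months. Their summed level was 963 to 1323 CPM in acute DKO and 1565 to 2041 CPM in acute controls, and 1430 to 1679 CPM in prolonged DKO and 1909 to 2300 CPM in prolonged controls. The 8 stem cell markers summed to 728 to 1764 CPM in acute DKO and 1879 to 2498 CPM in acute controls, and to 1550 to 1777 CPM in prolonged DKO and 2121 to 2504 CPM in prolonged controls; 2 of 8 fell at 7 days and 1 of 8 at 5 months. The 8 Paneth cell markers summed to 712 to 3792 CPM in acute DKO and 4311 to 8870 CPM in acute controls, and to 1889 to 7083 CPM in prolonged DKO and 7246 to 7939 CPM in prolonged controls; 7 of 8 fell at 7 days and 5 of 8 at 5 months. The 12 enterocyte markers summed to 35632 to 48042 CPM in acute DKO and 27543 to 41653 CPM in acute controls, and 3 of 12 rose at 7 days and 0 at 5 months. For Paneth and stem cell markers the lowest acute DKO sums, 712 and 728 CPM, were those of DKO 4 (medians 2942 and 1484 CPM). Of 8 enteroendocrine markers 2 fell at 7 days, and at 5 months 3 fell and 1 rose. Of 7 goblet cell markers 1 rose at 7 days, and at 5 months 1 rose and 1 fell. The 15 stromal, muscle and endothelial markers summed to 38.4 to 747 CPM in acute DKO, with the highest in DKO 3, and to 49.5 to 222 CPM in acute controls. The 18 immune markers summed to 439 to 1284 CPM in acute DKO and 473 to 876 CPM in acute controls. At 7 days the immune markers had 0 calls (limma), and 0 also at an unadjusted p under 0.05. Of the 11 stromal, muscle and endothelial markers tested at 7 days, 0 were below 0, with a median log2 fold change of 0.37. Among them 0 were called and 1 was higher at an unadjusted p under 0.05 (limma). With TMM factors 1 of them was called higher. At 5 months 1 of the 16 immune markers tested rose, and 1 of the 5 stromal, muscle and endothelial markers tested. No marker of these lists was at 0 in every library of a group, except the stromal marker Lum in prolonged controls. The part of these shifts in the subunit results was not tested, and in such bulk libraries fewer cells of a type and less RNA per cell cannot be told apart.

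Some members share exonic sequence with a neighbour, and the strand setting used in counting is not stated in the labels or headers. Exons of 17 of the 38 members overlap those of another gene (GENCODE vM21, GRCm38), 16 of them on the opposite strand. Exosc9 shares 510 bases, 10.8% of its exons, with the cyclin gene Ccna2 on the other strand, which fell at 7 days (-0.71 ± 0.11, limma, adjusted p = 0.000988). The exons of Exosc6 lie wholly within annotated exons of Aars on the same strand, so its level is uncertain. Exosc8 shares 2.05% of its exons with Supt20, which had a value of 0.09 ± 0.10 at 7 days that did not pass. Polr2e, Polr3c, Polr3f, Polr2m, Polr1d and Exosc7 have no such overlap.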

How the data were processed

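The authors deposited a table for each time with CPM per gene and library, together with their own comparison (log2 fold change, p-value and adjusted p-value, and a mean normalised signal per gene). The submitters' processing notes name the aligner STAR, the counter featureCounts (1.6.2), DESeq2 and build mm9, beside SAMtools (1.9), FastQC (0.11.5) and bedtools (2.27.1). In the deposited files CPM had the same sum in each library, and all low values were whole multiples of a single read (within 0.01 reads; 100% of values), so that reads per gene could be recovered and depth was known. There were 8 deposited columns that were not used. The tables hold 17294 acute names (24 turned into dates, 2 occurring more than once) and 16195 prolonged names.

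Log2(CPM + 1) was tested with limma 3.58.1 (trend, R 4.3.3) within each time, on genes with a CPM of 0.5 or more in at least 5 acute or 3 prolonged libraries, and adjusted over all genes (Benjamini-Hochberg, under 0.05); fold changes on this scale understate the change of low genes. A joint fit of the 4 groups gave the difference between the times. Alternatives were TMM-scaled CPM, edgeR 4.0.16 and DESeq2 1.42.0 on recovered reads, other pseudocounts and filters, a replicate block, and each library left out. On the recovered reads at 7 days edgeR called 667 genes higher and 1081 lower. Counts were also simulated with the gene means, depths and group sizes of each time. With those of the acute libraries, 24.2% of genes changed 1.3-fold were recovered, 74.6% at 1.5-fold and 100% at 2-fold. With those of the prolonged libraries the shares were 9.1%, 40.3% and 93.8%. The simulation gave all genes a single fixed spread, not estimated from the data, and no shifts shared across a library. Its rates therefore need not hold for the real libraries. No pair of replicates was a duplicate: the 44 pairs within groups differed by 6.14 to 139 times the sampling variance.

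Per-library values are printed for members called at both times, for the largest called member of each class at each time, for the largest subunits and for Polr3g and Polr3gl; of other lists, for each time, the called gene with the largest rise and the largest fall. Members and lists were chosen with earlier results of these data known. Of the 38 members, 1 enters the counts and medians but is not reported here on its own.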

Additional observations from a re-analysis of the deposited data

Results flagged for a closer look

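In 4 of 111 groups of libraries (37 members in the 3 groups of 5 or more), 1 library lay far from the rest; chance alone flags about 1 in 20 groups, and the 3 prolonged controls are too few for this rule. Polr2f had 47.8 CPM in acute DKO 7, above the next library at 42.5 CPM. Polr1a and Polr1b had 50.8 and 51.6 CPM in acute control 1, above the next at 42.5 and 41.5 CPM. Polr3g had 14.1 CPM in acute control 3, above the next at 11.6 CPM.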

How the results depend on the processing

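The acute count of 13 members (7 polymerase, 6 exosome) was unchanged with a pseudocount of 0.5. It was 6 (3 and 3) with TMM factors, edgeR, DESeq2 or without acute DKO 3 and 4, where the polymerase share was 10.7%. The shares of all genes called lower there were 8.26%, 7.95%, 9.14% and 9.64%. The cause of these shifts was not tested. Genes called higher numbered 394 on CPM, 660 with TMM factors, 667 by edgeR and 1016 by DESeq2, and edgeR called 1081 lower. Leaving out each library gave 4 to 16 members (3 to 9 polymerase, 1 to 7 exosome), with 225 to 434 genes higher and 1012 to 1817 lower. The prolonged count of 1, Exosc8, was 0 with no filter on low values and 0 to 2 (0 to 1 polymerase, 0 to 1 exosome) across leave-outs, with 369 to 754 genes higher and 683 to 1154 lower. For the difference between the times, calls over all genes were 5 higher with no filter, 6 higher and 2 lower by DESeq2, 16 higher and 4 lower from separately fitted changes, and 0 to 2 higher across leave-outs; 0 members were called under any of these. The difference in the Polr3g over Polr3gl log2 ratio ran from -0.48 to -0.34 at 7 days and from -0.66 to -0.43 at 5 months across leave-outs, of which 2 of 8 at 5 months had an exact p under 0.05.

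Replicate numbers did not pair the libraries: correlations of same-numbered deviations ran from -0.24 to 0.198, and no library correlated best with its own number. With a replicate block, 2 members (2 polymerase, 0 exosome) were called at 7 days, among 119 genes higher and 828 lower, and 0 at 5 months (0 exosome), among 167 higher and 361 lower.

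Outside the leave-outs, 19 values of 8 members without a call changed sign, counted over all 38 members within each time and over the 11 members with printed library values for the difference between times; over all 38, the members below 0 in that difference were 2 on CPM, 5 with TMM factors, 6 with edgeR or DESeq2 and 3 without acute DKO 3 and 4. Acute Polr2g was 0.0051 (DESeq2); acute Polr2h was 0.0215, 0.0274 and 0.0371 and acute Polr3e 0.0297, 0.0368 and 0.0469 (TMM, edgeR, DESeq2), with Polr3e 0.0018 without acute DKO 3 and 4; acute Polr3gl was -0.053 with the block. Prolonged Polr1b was 0.0003, 0.0013 and 0.0010, and prolonged Polr1e 0.0017, 0.0057 and 0.0074 (TMM, edgeR, DESeq2) and 0.0367 with the block. The difference between times was -0.0003 (edgeR) and -0.0099 (DESeq2) for Polr2a, and -0.0037 for Polr3g without acute DKO 3 and 4. Prolonged leave-outs spanned 0 for Exosc5 (-0.0257 to 0.096), Polr1a (-0.10 to 0.14), Polr1b (-0.1151 to 0.071), Polr1e (-0.12 to 0.10), Polr2d (-0.15 to 0.0022) and Polr3b (-0.0164 to 0.1291). Changes of 1.3-fold, near the largest among the members, were recovered for 24.2% of simulated acute and 9.1% of simulated prolonged genes. The simulation used a single fixed spread for all genes, so these rates need not hold for the real libraries.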
